A study of Neurospora crassa with 6 samples.

Results

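Conidiation, the making of asexual spores, was followed through 7 genes of the filamentous fungus Neurospora crassa: the regulator fl (NCU08726), the conidiation-specific genes con-6 (NCU08769), con-8 (NCU09235), con-10 (NCU07325) and con-13 (NCU07324), the hydrophobin gene eas (NCU08457) and the clock-controlled gene ccg-1 (NCU03753). They were taken by their gene IDs, and all 7 were found among the 9691 IDs of the expression tables. The data are poly(A) RNA sequencing of 6 wild-type cultures, read as single reads of 50 bp. Conidia were put into liquid culture with shaking in constant light, grown for 6 h and then kept for 1 h more with 20 µM of the protein kinase inhibitor staurosporine, under which this fungus dies, or with DMSO. Each agent was used in 3 minimal media, namely standard, 0 Ca2+ and one holding 20 mM CaCl2, so that the 6 groups have 1 library each. The comparisons address how far a response to staurosporine depends on calcium in the medium.

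In Neurospora, aerial hyphae bud off chains of conidia, and a cascade of regulators switches on genes whose products fill and coat the spore. The zinc cluster transcription factor encoded by fl (fluffy) is required for the budding of conidiophores. Several of its downstream genes also answer to light, the circadian clock, carbon and nitrogen supply, and their transcripts are lost as a spore germinates. Young germlings in liquid are not a conidiating stage, so low levels of such transcripts are the textbook starting point here.

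Levels are given as FPKM, fragments per kilobase of transcript and per 1000000 mapped reads, as the authors deposited them. Since FPKM is scaled by length, levels can be set side by side between genes. With 1 library a group, levels have no replicate error and the order of levels between conditions cannot be set against a spread. In bulk RNA, fewer cells with a transcript and less transcript per cell cannot be told apart.

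The regulator fl (NCU08726) was low in all libraries. Its level was 0.956 FPKM in standard medium with DMSO, 1.44 in 0 Ca2+ with DMSO and 1.98 in 20 mM CaCl2 with DMSO. With staurosporine it was 1.88, 2.60 and 1.98 FPKM in the same order of media. The lowest and highest library thus differed by 2.72 times, and the staurosporine and DMSO groups overlapped. Within its own library, fl stood between percentiles 27.4 and 32.8 of all genes.

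The gene con-10 (NCU07325) encodes a small hydrophilic protein of conidia. With DMSO its level was 1.11 FPKM in standard medium, 2.44 in 0 Ca2+ and 1.30 in 20 mM CaCl2. With staurosporine it was 7.14 in standard medium, 35.1 in 0 Ca2+ and 4.03 in 20 mM CaCl2. Each staurosporine library lay above all DMSO libraries, and con-10 was the only one of the 7 genes of which this was true. Among the 7415 genes that averaged 1 FPKM or more over the 6 libraries, 7.50% had all 3 staurosporine libraries above all 3 DMSO libraries. The reverse, all 3 staurosporine libraries below, was true of 14.8% of those genes and of 0 of the 7. The unpaired exact permutation test of 3 against 3 libraries, two-sided, gave p = 0.1 for con-10, the smallest p that this test allows. That test did not use the pairing of libraries within a medium.

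For con-6 (NCU08769), another gene named for its expression during conidiation, the DMSO libraries were close together, at 1.70 FPKM in standard medium, 2.47 in 0 Ca2+ and 2.59 in 20 mM CaCl2. The staurosporine libraries were spread over a range of 33.0 times, from 1.28 FPKM in 20 mM CaCl2 through 4.63 in standard medium to 42.2 in 0 Ca2+. The 20 mM CaCl2 library with staurosporine was thus the lowest of the 6 and the 0 Ca2+ library with staurosporine the highest. In that highest library con-6 moved to percentile 82.1 of all genes, from percentile 34.5 in the DMSO library of the same medium.

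Levels of con-8 (NCU09235) took the same shape at a smaller size. With DMSO they were 0.990 FPKM in standard medium, 1.15 in 0 Ca2+ and 2.05 in 20 mM CaCl2, and with staurosporine 5.05, 10.3 and 0.972 in that order. The highest library was again 0 Ca2+ with staurosporine and the lowest again 20 mM CaCl2 with staurosporine.

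The gene con-13 (NCU07324) was barely detected. It was listed at 0 in 3 libraries, namely both of 20 mM CaCl2 medium and 0 Ca2+ with DMSO. It was at 0.0438 FPKM in standard medium with DMSO, at 0.106 with staurosporine there, and at 0.964 in 0 Ca2+ with staurosporine. The authors' deposited tables mark it as not tested in all 5 comparisons, and it did not pass the filter on low values used here. Its highest library was the same as that of the other con genes.

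The hydrophobin gene eas (NCU08457, easily wettable, also named ccg-2 and bli-7) encodes the rodlet protein that makes conidia water-repellent. Unlike the con genes, it followed the medium. With DMSO its level was 2.10 FPKM in 0 Ca2+, 18.0 in standard medium and 69.7 in 20 mM CaCl2. With staurosporine it was 7.95, 39.4 and 52.2 FPKM in the same order, so the deposited levels kept the order of the media under both agents. The staurosporine step from standard to 20 mM CaCl2 medium depended on the scaling. Its log2 ratio of FPKM + 1 was 0.40 as deposited and -0.009 with libraries scaled to equal FPKM sums. The 20 mM CaCl2 library with DMSO was 33.2 times the 0 Ca2+ library with DMSO, while the staurosporine group lay inside the range of the DMSO group.

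The gene ccg-1 (NCU03753, also known as grg-1, a glucose-repressible gene) was the most abundant of the 7 in every library. With DMSO it was at 146 FPKM in standard medium, 240.3 in 0 Ca2+ and 149 in 20 mM CaCl2. With staurosporine it was at 217, 465 and 130.1 FPKM in that order. It stood between percentiles 92.8 and 97.8 of all genes. Its 0 Ca2+ libraries were the highest under each agent.

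**Figure D1:**
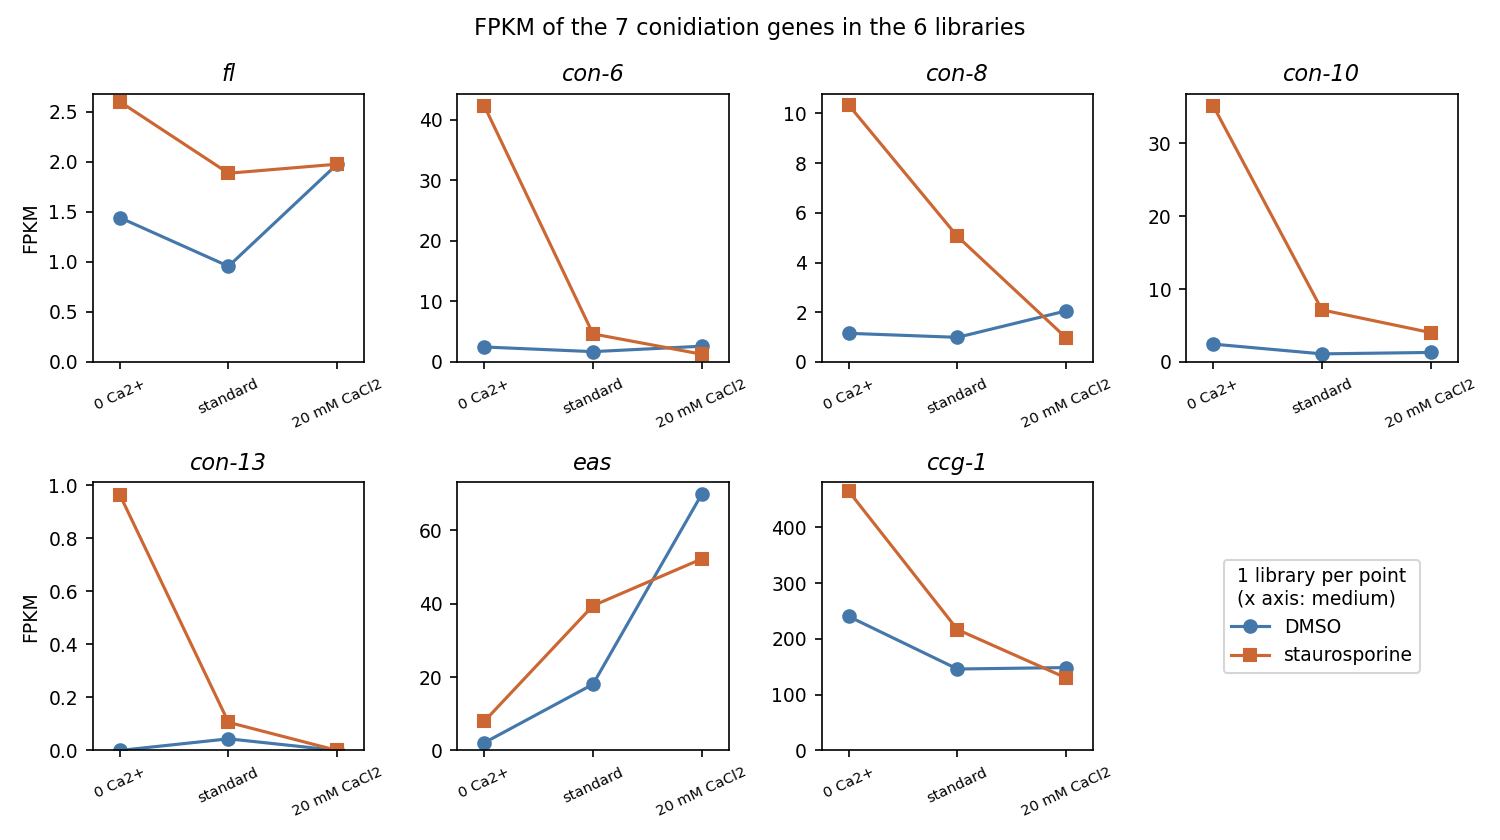
FPKM (linear y axes starting at 0) of the 7 genes in the 3 media (x axis), with blue circles for DMSO and orange squares for staurosporine; each point is 1 library and lines only join points of 1 agent. The con genes and ccg-1 are highest in 0 Ca2+ with staurosporine, at 42.2 FPKM for con-6 and 35.1 for con-10, while eas is highest in 20 mM CaCl2 with DMSO, at 69.7. The share of all genes that are highest in 0 Ca2+ with staurosporine was not counted.

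At low FPKM few reads stand behind a value. Multiplied by the gene lengths in RefSeq (assembly NC12, introns included), con-10 corresponds to 0.908 fragments per 1000000 mapped reads in standard medium with DMSO and to 28.8 in 0 Ca2+ with staurosporine. For con-6 the DMSO libraries correspond to between 1.51 and 2.30 such fragments, and the 20 mM CaCl2 library with staurosporine to 1.13. These figures are approximate, since the gene models of the tables may differ, and the number of mapped reads is unknown. The annotations of con-6 and its neighbour NCU08768 overlap by 93 bases, and reads there could be counted for either gene.

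Staurosporine was compared with DMSO within each medium as a log2 ratio of FPKM + 1, a scale that understates the change of low genes. These ratios have no replicate and no test. In 0 Ca2+ medium the ratio was 3.64 for con-6, 3.39 for con-10, 2.40 for con-8 and 1.53 for eas. The first 3 of these stood at percentiles 99.3, 99.1 and 96.3 among the 7415 genes, and eas at 90.1. The ratio was 0.95 for ccg-1 and 0.56 for fl. In plain FPKM, con-6 was 17.1 times, con-10 14.4 times and con-8 8.97 times the DMSO library. Thus 4 of the 7 genes were higher by at least 1 on the log2 scale, as were 17.2% of all genes, and 0 were lower, against 21.3% of all genes. The median of the 6 that passed the filter was 1.96, beside -0.13 over all genes.

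In standard medium the ratio was 1.95 for con-10, 1.60 for con-8, 1.09 for eas and 1.06 for con-6. Again 4 of the 7 were higher by at least 1, against 12.8% of all genes, and 0 were lower, against 14.6%. The ratio was 0.57 for ccg-1 and 0.56 for fl. Of these, con-10 stood at percentile 97.5 and con-8 at 95.6, while con-6 and eas were at 88.5 and 89.0. The median of the 6 was 1.07, beside 0.10 over all genes.

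In 20 mM CaCl2 medium the ratio was 1.13 for con-10, at percentile 98.2, and this was the only one of the 7 genes higher by at least 1, against 2.49% of all genes. It was -0.66 for con-6, -0.63 for con-8, -0.41 for eas and -0.19 for ccg-1, and 0.00014 for fl. None of the 7 was lower by at least 1, as 6.03% of all genes were. The median of the 6 was -0.30, beside -0.14 over all genes.

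**Figure D2:**
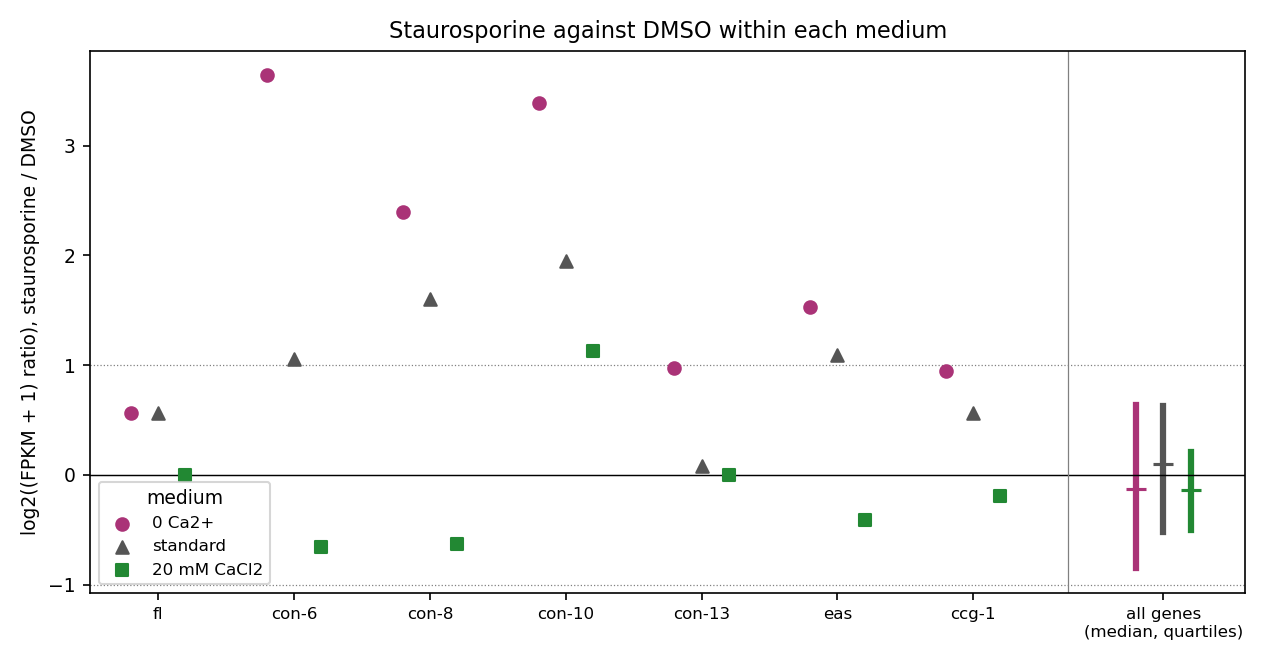
Log2 ratio of FPKM + 1 in staurosporine over DMSO (y axis) for the 7 genes and, at the right, the median and quartiles of the 7415 genes averaging 1 FPKM or more; magenta circles are 0 Ca2+, grey triangles standard and green squares 20 mM CaCl2 medium, each from 1 pair of libraries. Only con-10 lies above the dotted line at 1 in all 3 media, with 1.13, 1.95 and 3.39.

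The authors' deposited tables, which compare single libraries, call con-6 (q = 1.16e-09), con-10 (q = 1.61e-07), con-8 (q = 3.5e-05) and eas (q = 0.0468) significantly higher with staurosporine in 0 Ca2+ medium. In standard medium the authors' deposited table calls con-8 (q = 0.00275) and con-10 (q = 0.0125). In 20 mM CaCl2 medium the authors' deposited table calls none of the 7, with q = 0.163 for con-10.

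Taking the 3 media as repeats, limma's moderated test on the 3 ratios called none of the 7 genes. The gene nearest to the threshold was con-10, with a mean log2 ratio of 2.16 ± 1.15 (SD, n = 3 media) above 0 in 3 of 3 media, a moderated SE of 0.50, an unadjusted p of 0.0039 and an adjusted p of 0.292 in limma. The mean was 1.35 ± 2.16 for con-6 and 1.12 ± 1.57 for con-8, both above 0 in 2 of 3 media, with adjusted p of 0.474 and 0.448 in limma. For eas it was 0.74 ± 1.02, for ccg-1 0.44 ± 0.58 and for fl 0.37 ± 0.32, with adjusted p of 0.514, 0.628 and 0.676 in limma. The test called 0.0809% of the 7415 genes as higher. An unadjusted p below 0.05 in limma was found for con-10 alone of the 7, and for 1047 of the 7415 genes. Without the 20 mM CaCl2 pair, con-10 passed with an adjusted p of 0.0269 in limma at a mean of 2.67, as did 2.35% of all genes in the higher direction. Over the alternatives tried the adjusted p of con-10 ran from 0.0269 to 0.99956.

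The staurosporine ratios of 5 genes, namely con-6, con-8, con-10, eas and ccg-1, were highest in 0 Ca2+, lower in standard medium and lowest in 20 mM CaCl2, an order that 25.5% of all genes had. With libraries scaled to equal FPKM sums this held for 3 genes, con-6, con-8 and con-10, and for 20.1% of all genes. The ratio in 0 Ca2+ exceeded that in 20 mM CaCl2 by 4.30 for con-6, 3.03 for con-8, 2.26 for con-10, 1.94 for eas, 1.14 for ccg-1 and 0.56 for fl. Over all genes the median of that difference was 0.04, and con-6 stood at percentile 99.6 and con-8 at 97.4 of it. In sign, con-6, con-8, eas and ccg-1 were above 0 in standard and 0 Ca2+ medium and below 0 in 20 mM CaCl2, as were 18.9% of all genes, while fl and con-10 were above 0 in all 3 media, as were 13.6%. The difference between media has no replicate and was not tested.

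The effect of the medium was read both with DMSO and with staurosporine. In the DMSO libraries, eas was the one gene of the 7 past 1 on the log2 scale. It was at -2.62 in 0 Ca2+ against standard medium, at percentile 0.175 of all genes, where 2.27% of genes were lower by at least 1, and none of the 7 was higher by at least 1, against 2.94%. In 20 mM CaCl2 against standard medium it was at 1.89, at percentile 99.8, where 1.97% of genes were higher by at least 1. None of the 7 was lower by at least 1 in that comparison, against 0.769% of all genes, and none but eas passed 1 in either. Both values share the standard DMSO library. The authors' deposited tables call both, with q = 1.64e-04 for 0 Ca2+ and 4.65e-04 for 20 mM CaCl2. These too compare 1 library with 1, and the share of all genes called was not counted.

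For the other genes the DMSO ratios of 0 Ca2+ against standard medium lay between -0.06 for con-13 and 0.71 for con-10 and ccg-1. In 20 mM CaCl2 against standard medium they lay between -0.06 for con-13 and 0.62 for con-8, with fl at 0.61. At FPKM values of 1 to 2.6, as fl, con-6, con-8 and con-10 had with DMSO, such differences rest on few reads.

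With staurosporine the media differed more for the con genes, and so they did over all genes. For 0 Ca2+ against standard medium the quartiles of all genes were -0.76 and 0.67 with staurosporine, beside -0.09 and 0.33 with DMSO. In 0 Ca2+ against standard medium the ratio was 2.94 for con-6, 2.15 for con-10 and 1.10 for ccg-1, so 3 of the 7 were higher by at least 1, against 17.3% of all genes. It was 0.91 for con-8 and 0.32 for fl. At the other end eas was at -2.18, at percentile 2.95, and was the 1 gene of the 7 that was lower by at least 1, against 18.2% of all genes.

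In 20 mM CaCl2 against standard medium with staurosporine, con-8 was at -1.62 and con-6 at -1.30, so 2 of the 7 were lower by at least 1, against 12.2% of all genes. The ratio was -0.73 for ccg-1, -0.69 for con-10, 0.04 for fl and 0.40 for eas. None of the 7 was higher by at least 1, against 11.8% of all genes.

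**Figure D3:**
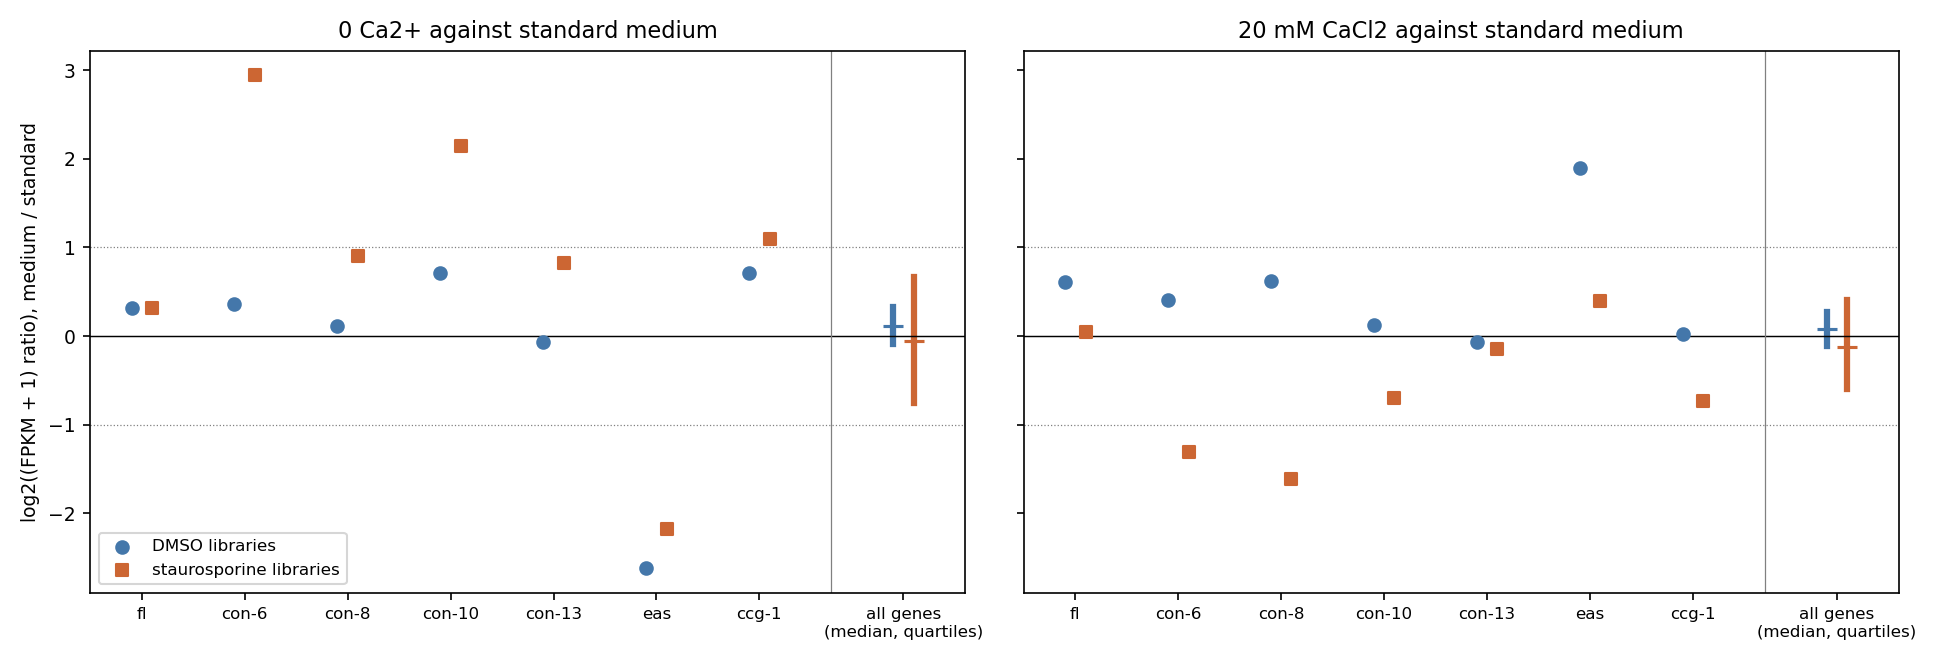
Log2 ratio of FPKM + 1 (y axes) of 0 Ca2+ over standard medium (left) and of 20 mM CaCl2 over standard medium (right) for the 7 genes, with the median and quartiles of 7415 genes; blue circles are from DMSO and orange squares from staurosporine libraries. At left eas lies low under both agents, at -2.62 and -2.18, while con-6 is at 2.94 with staurosporine and 0.36 with DMSO; at right eas is at 1.89 with DMSO and 0.40 with staurosporine.

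In a limma fit of all 6 libraries with agent and medium as terms, none of the 7 genes passed for either medium, nor did any of the 7415 genes. In that fit eas differed between 0 Ca2+ and standard medium by a log2 value of -2.40 (moderated SE 0.56), lower in 2 of 2 pairs, with an unadjusted p of 0.0042 and an adjusted p of 0.884 in limma. For 218 genes the unadjusted p of that contrast was below 0.05. For 20 mM CaCl2 against standard medium eas was at 1.14 (moderated SE 0.56), with an adjusted p of 0.99995 in limma. It was higher in 2 of 2 pairs as deposited, but the staurosporine pair was at -0.009 with equal FPKM sums. For this contrast 125 genes had an unadjusted p below 0.05. These fits hold 2 residual degrees of freedom, and a response to staurosporine that depends on the medium adds to their spread.

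Across the 6 libraries, log2(FPKM + 1) of con-6 correlated with con-8 at r = 0.928, with con-10 at 0.910 and with ccg-1 at 0.929. The value for eas was -0.328 with con-6, -0.0828 with con-8, -0.237 with con-10, -0.615 with ccg-1 and 0.186 with fl. The gene fl had r = 0.755 with con-10 and 0.716 with con-8. These coefficients rest on 6 libraries, of which 0 Ca2+ with staurosporine is the highest for each of these genes but eas, and they are a description only.

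Upstream and parallel genes of the pathway were taken from lists matched by symbol or product. Of 23 other conidiation regulators 22 passed the filter, and limma over the media called 0 of them in either direction. The median of their mean ratios was -0.02, beside -0.03 over all genes. The staurosporine ratios of the con genes were highest in 0 Ca2+ medium. There 2 of the 22 were higher and 6 lower by at least 1, beside 17.2% and 21.3% of all genes, at a median of -0.58. The 2 higher ones were rca-1, the Myb-type regulator related to Aspergillus flbD, from 6.17 to 22.6 FPKM, and fld, from 5.15 to 17.5 FPKM. The conidiophore regulator gene acon-2 had a ratio of -2.14 there but 0.88 in standard and 1.06 in 20 mM CaCl2 medium. The regulator ada-5, named for a mutant with altered development, had the largest mean ratio of the list, 1.46 ± 1.16 (SD, n = 3 media), from 5.98 to 42.7 FPKM in standard medium. The GATA factor gene sub-1 was lower in all 3 media, at a mean of -1.08 ± 0.61 (SD, n = 3 media). In limma the adjusted p was between 0.301 and 0.412 for ada-5, sub-1, rca-1 and fld, and 0.976 for acon-2.

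Signalling through cAMP and heterotrimeric G proteins restrains conidiation in this fungus. All 11 genes of that list passed the filter, limma called 0 of them, and the median of their mean ratios was -0.05. In 0 Ca2+ medium 4 of the 11 were lower by at least 1 and 0 higher, beside 21.3% and 17.2% of all genes, among them the G protein alpha subunit gene gna-1 with a ratio of -2.35 and gna-2 with -1.96. The same genes were at 0.96 and 1.30 in standard medium and at 0.88 and 0.52 in 20 mM CaCl2. The largest mean ratios were those of mcb, the regulatory subunit of protein kinase A, at -0.60, gna-3 at 0.57, the catalytic subunit gene pkac-2 at -0.43 and ric8, a G protein activator, at 0.34.

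A further list held 9 other conidiation genes. The csp genes, cat-1, nop-1 and other con genes were entered by symbol or synonym, the rest by products with a conidiation or hydrophobin term. Of the 9, 7 passed the filter and limma called 0. Among them csp-1 and csp-2 also stand in the list of regulators. The gene cat-1, encoding a catalase abundant in conidia, was higher in each medium. It went from 2.88 to 37.4 FPKM in standard medium, from 10.6 to 69.1 in 0 Ca2+ and from 2.55 to 11.2 in 20 mM CaCl2, and its mean ratio was 2.56 ± 0.76 (SD, n = 3 media) with an adjusted p of 0.169 in limma. The opsin gene nop-1 was low throughout, from 0.449 to 2.70 FPKM, and highest in 0 Ca2+ with staurosporine. The gene hym-1 had a mean ratio of 0.51. The gene acu-6 (synonym con-3), encoding phosphoenolpyruvate carboxykinase of gluconeogenesis, went the other way, with ratios of -2.84 in standard, -2.51 in 0 Ca2+ and -0.66 in 20 mM CaCl2 medium. NCU08192, the other gene annotated as a hydrophobin, was listed at 0 in all 6 libraries.

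Clock-controlled genes besides ccg-1 and eas did not share 1 direction. Of 10, 8 passed the filter, limma called 0, and the median of their mean ratios was 0.00 to 2 decimals. Of unknown role, ccg-16 had a mean ratio of 1.39, reaching 3141 FPKM in standard medium with staurosporine, and ccg-6 one of -1.15. The pheromone gene ccg-4 was at 1.14 and the copper metallothionein gene cmt (ccg-12) at -0.96. In 0 Ca2+ medium ccg-8 had a ratio of -2.06, while ccg-1 was at 0.95.

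**Figure D4:**
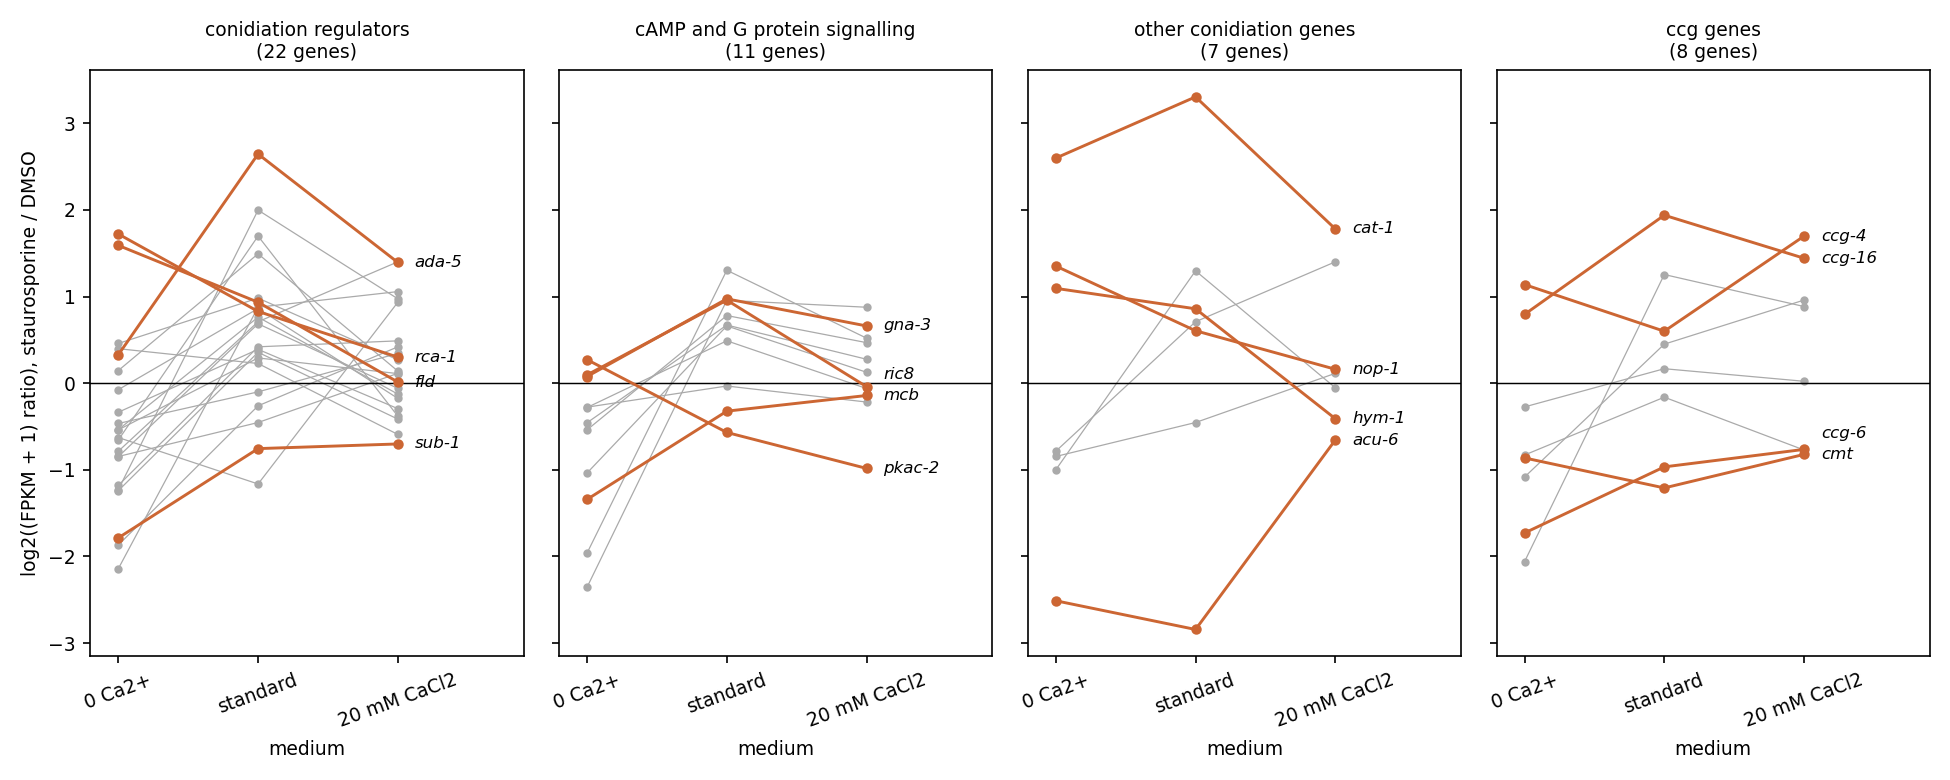
Log2 ratio of FPKM + 1 in staurosporine over DMSO (y axis) in the 3 media (x axis) for genes of 4 lists that average 1 FPKM or more; each line joins the 3 values of 1 gene, and orange lines are the 4 genes of a list with the largest mean ratio in size. In the regulator list most lines are lowest in 0 Ca2+, while rca-1 and fld are at 1.72 and 1.59 there. From left to right, the list medians in 0 Ca2+ are -0.58, -0.46, -0.79 and -0.85, beside -0.13 over all genes. The share of all genes lowest in 0 Ca2+ was not counted. In the list of other conidiation genes, cat-1 lies above 1 in each medium.

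The genes next to the members in RefSeq NC12 were read as well. The genes con-10 and con-13 are neighbours of each other. NCU08770, a gene of unknown product beside con-6, had 3.79 FPKM in 0 Ca2+ with DMSO and 24.4 with staurosporine, a ratio of 2.41, and ratios of 0.80 in standard and -0.40 in 20 mM CaCl2 medium. These have the same signs as those of con-6. NCU08768 on the other side was at 0.90 in standard medium, at 0.56 in 0 Ca2+ and at -0.73 in 20 mM CaCl2. NCU09233, a FAD synthetase gene beside con-8, went from 21.8 to 79.2 FPKM in 0 Ca2+ medium and had ratios of 1.08, 1.81 and -0.54 in that order, while NCU09236 on the other side stayed at or below 0.356 FPKM. The neighbours of ccg-1 were below 0 in 0 Ca2+ medium, where ccg-1 was above, with NCU03752 at -1.39 and NCU03754 at -0.51, and like ccg-1 both were below 0 in 20 mM CaCl2 medium. NCU07323, beyond con-13, and NCU08724, beside fl, were highest in 0 Ca2+ with staurosporine as well, at 0.573 and 2.21 FPKM, and so was NCU08727, on the other side of fl, at 5.62. How many of all genes were highest in that library was not counted. Next to eas lie tRNA genes, for which no values were analysed here.

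Some facts of the libraries move with these results. FPKM sums lay between 940590 and 1001098 in the DMSO libraries and between 500315 and 696047 in the staurosporine libraries. Scaling to equal sums shifted the staurosporine ratios of all genes by a median of 0.81 in standard, 0.41 in 0 Ca2+ and 0.51 in 20 mM CaCl2 medium. Under it the 20 mM CaCl2 ratio turned to 0.17 for eas and 0.39 for ccg-1, and stayed below 0 for con-6 (-0.30) and con-8 (-0.31). With ratios centred on the median it turned to 0.05 for ccg-1. Cytosolic ribosomal protein genes, taken as a sign of growth, summed to between 301684 and 344036 FPKM over 76 genes in the DMSO libraries and to between 70816 and 205352 in the staurosporine libraries. Genes listed for sexual development summed to between 8.10 and 20.3 FPKM over 10 genes with DMSO and to between 13.2 and 32.8 with staurosporine. Of the highest sum, in 20 mM CaCl2 with staurosporine, 21.5 FPKM came from ccg-4, which is also counted among the clock-controlled genes, and per-1, the perithecial pigment gene, did not exceed 0.04 FPKM. The part of these shifts in the values of the 7 genes was not tested.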

How the data were processed

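RNA sequencing of 6 libraries, 1 per group, was read from 5 tables, each comparing a pair of libraries. Per the submitters' processing notes the authors used TopHat2 2.0.4, Cufflinks 2.0.2 and Cuffdiff, and the genome build is not given in the sources used here. Per the file headers, the values deposited are FPKM, a log2 ratio, p-values and q-values. Decimal commas were converted. A library present in several tables had identical FPKM, with 0 genes differing. The tables hold no counts. Low values showed weak repeated steps (for 0 Ca2+ with DMSO against standard, a ratio of 0.8 in 24 of 356 genes), so depth is unknown and no counting interval is given. Symbols and gene order came from RefSeq NC12, matched by locus tag for 9141 IDs, all 7 members included, and no sequence was used.

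Ratios were log2((FPKM + 1) ratio) over the 7415 genes that averaged 1 FPKM or more. Calls needed an absolute value of at least 1 and, in limma 3.58.1 (R 4.3.3, moderated test with mean trend, two-sided), a Benjamini-Hochberg adjusted p below 0.05 over all genes. Script steps used Python 3.11.15, pandas 2.3.3, numpy 2.4.6 and matplotlib 3.10.9. The limma fits were tested on simulated data in which a staurosporine change was the same in every medium, unlike the ratios here. That run checked the code and does not give the power in these data. The members and lists were chosen with earlier results of these data known. Named genes are the members, their neighbours, up to 4 of each list with the largest mean ratio, and the 3 annotated genes most correlated with each member reaching 5 FPKM; acon-2, gna-1, gna-2, ccg-8 and NCU08192 were chosen after their values were seen. Tried besides were a pseudocount of 0.1 or of 5, all genes unfiltered, a minimum of 10, centred ratios, equal sums, the authors' testable genes, and for the test over the media an unpaired fit, no trend, no minimum fold and leaving out each medium. Nothing says that the cultures were independent experiments.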

Additional observations from a re-analysis of the deposited data

Results flagged for a closer look

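The staurosporine ratio of 4 genes had opposite signs in 0 Ca2+ and 20 mM CaCl2 medium. The ratio in 0 Ca2+ minus that in 20 mM CaCl2 was 4.30 for con-6, 3.03 for con-8, 1.94 for eas and 1.14 for ccg-1. Each ratio comes from 1 pair of libraries, so the difference was not tested. This sign pattern, with standard medium also above 0, was shared by 18.9% of all genes. With equal FPKM sums it held for con-6 and con-8 and for 13.4% of all genes.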

How the results depend on the processing

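Within single comparisons, the count of the 7 genes higher with staurosporine fell from 4 to 0 in standard medium and from 1 to 0 in 20 mM CaCl2 with a pseudocount of 5, which shrinks ratios of low genes. With a minimum mean FPKM of 10, at which only eas and ccg-1 are left, it was 1 in standard medium, 1 in 0 Ca2+ and 0 in 20 mM CaCl2. The count rose to 6 in standard medium and to 5 in 0 Ca2+ with equal FPKM sums. Equal sums also raised the ratios of all genes in these media, by a median of 0.81 and 0.41. The share of all genes past 1 was not counted under any of the alternatives given here. Centred ratios also gave 5 in 0 Ca2+, while a pseudocount of 5 gave 3 there. With a pseudocount of 0.1, con-8 became 1 gene lower in 20 mM CaCl2, at -1.01, and con-10 became 1 gene higher in 0 Ca2+ against standard medium with DMSO, at 1.08. Among staurosporine libraries, the minimum of 10 left 1 gene higher in 0 Ca2+ against standard medium. The count lower in 20 mM CaCl2 against standard medium went from 2 to 0 with a pseudocount of 5 or a minimum of 10, and to 4 with equal FPKM sums. With equal sums, 2 genes (fl and con-10) had all staurosporine above all DMSO libraries, a setting chosen after seeing the data. The share of all genes with this was not counted under that scaling. Staurosporine ratios were above 0 in all 3 media for 42.6% of all genes with equal sums, against 13.6% as deposited. In the test over the media the count of the 7 ran from 0 to 1 when 1 medium was left out, and was 0 under the other alternatives. Over all genes that test called 12, but 0 with a pseudocount of 5, with no filter, with centred ratios or without the standard pair, 6 with a pseudocount of 0.1, 8 without the mean trend, 26 with equal sums, 35 without the 0 Ca2+ pair and 536 without the 20 mM pair. No call of a single gene reversed. The test over the media pairs libraries within a medium, and an unpaired fit called 7 genes higher and 6 lower. The labels give no replicate numbers that could serve as a block. Read depth is unknown, and low levels stand behind the DMSO values of fl and the con genes, at or below 2.59 FPKM, and that of eas in 0 Ca2+ medium, at 2.10.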

Other observations

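Outside the pathway, the annotated genes whose log2(FPKM + 1) over the 6 libraries was most like that of a member were looked up among 4328 named genes. Closest to con-6 were the MatE family transporter gene NCU04672 (r = 0.996), which went from 1.24 to 21.6 FPKM in 0 Ca2+ medium with staurosporine, the TLDc domain gene NCU02452 (r = 0.995) and the protease inhibitor gene NCU06524 (r = 0.995). Closest to con-8 were the PQ loop repeat gene NCU06610 (r = 0.997), the uracil phosphoribosyltransferase gene NCU06261 (r = 0.994) and the methylmalonate-semialdehyde dehydrogenase gene NCU09266 (r = 0.994), the last of which went from 11.1 to 145 FPKM in 0 Ca2+ medium. Closest to con-10 were parp (NCU08852, r = 0.994), encoding a poly(ADP-ribose) polymerase, NCU08719 (r = 0.990) and the zinc metallopeptidase gene NCU02060 (r = 0.989).

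Closest to ccg-1 were NCU05539 (r = 0.996), arg-2 (r = 0.996), encoding the small subunit of the arginine-specific carbamoyl-phosphate synthase, and NCU04345 (r = 0.995). For eas the nearest genes were the carboxypeptidase gene NCU05980 (r = 0.984), gh76-3 (r = 0.948) and the cell wall protein gene acw-9 (r = 0.947). Of these, acw-9 kept to between 1299 and 2043 FPKM, a far narrower range than that of eas. With 6 libraries and 4328 candidates such coefficients are a description only.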
